A study of Mus musculus with 12 samples.

Results

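The genes described are Zfp36, Zfp36l1 and Zfp36l2, the Zfp36 family of AU-rich element decay proteins, together with Elavl1 and Khsrp, which bind the same kind of RNA element. They were chosen by gene symbol, and all 5 were found once among the 17419 genes of the deposited table. All groups were NIH-3T3 cells, a wild-type immortalised mouse fibroblast line, grown by the same protocol. Cells were left without 4-thiouridine (no4sU) or given 800 µM 4sU, a uridine analogue built into newly made RNA, for 15, 30, 60, 90 or 120 min. In SLAM-seq, iodoacetamide turns incorporated 4sU into a base read as C. These changes give the new-to-total ratio (NTR), the fraction of a transcript's molecules that appeared after 4sU was added. There were 2 libraries, A and B, for each of 6 groups, and the series asks how labelling time biases quantification. Nothing in the labels says that A and B came from separate cultures, so errors and p-values measure only the spread between these libraries.

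AU-rich elements are stretches of A and U, often with AUUUA repeats, in the 3′ untranslated region (3′ UTR) of many short-lived messages such as those of cytokines and early response genes. Zfp36 family proteins bind them through CCCH zinc fingers and bring in deadenylases and decapping enzymes, so that the message is degraded. Elavl1 (HuR) binds similar sequences through RNA recognition motifs and is mostly known to stabilise its targets, whereas Khsrp (KSRP) binds through KH domains and promotes decay. Messages of the Zfp36 family carry AU-rich elements themselves and are known targets of their own proteins. In fibroblasts Zfp36 is a classical serum-induced early gene.

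To show which of the 5 messages carry such elements, the 30 bases of each 3′ UTR with the most AU-rich motifs are printed from the GENCODE M21 transcript sequences (GRCm38, transcribed strand, DNA letters), with each ATTTA in capitals. The motifs searched, on the transcribed strand only, were the pentamer ATTTA and the heptamer TATTTAT, the core of the sequence Zfp36 proteins prefer, and every heptamer contains a pentamer.
Zfp36: tttATTTAtgacgactttATTTAttgtatt
Zfp36l1: agcttATTTAacttatcaaaacgtATTTAt
Zfp36l2: aatatgaaaaactATTTAacttATTTAtta
Elavl1: ttATTTATTTATTTATTTAtttttATTTAt
Khsrp: agccagccttagaaaatagcaagaATTTAa
These windows lie on the minus strand at chr7:28376956-28376985 (Zfp36), chr12:80108433-80108462 (Zfp36l1), chr17:84184923-84184952 (Zfp36l2), chr8:4285777-4285806 (Elavl1) and chr17:57021597-57021626 (Khsrp), each within a single exon and the 3′ UTR. The genes themselves span chr7:28376784-28380253 (Zfp36, ENSMUSG00000044786), chr12:80107754-80113013 (Zfp36l1, ENSMUSG00000021127), chr17:84183931-84187947 (Zfp36l2, ENSMUSG00000045817), chr8:4285382-4325413 (Elavl1, ENSMUSG00000040028) and chr17:57021051-57031522 (Khsrp, ENSMUSG00000007670), all protein coding.

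The whole 3′ UTRs differed more than the windows. Zfp36 had 3 ATTTA, all 3 of them within a TATTTAT, in a 3′ UTR of 774 bases. Zfp36l1 had 9 ATTTA and 3 TATTTAT in 1835 bases, and Zfp36l2 had 5 and 3 in 1822 bases. Elavl1 had the most, with 17 ATTTA and 8 TATTTAT in 4218 bases, while Khsrp had 1 ATTTA and 0 TATTTAT in 1642 bases. Among 8918 expressed genes with an annotated 3′ UTR, 4.10% had at least 3 TATTTAT and 0.123% had at least 8. Of 3′ UTRs within 20% of each one's own length, 0.879% had at least as many heptamers as Zfp36 (1024 genes compared), 3.15% as Zfp36l1 (1398), 3.14% as Zfp36l2 (1403) and 0.2503% as Elavl1 (799). For the pentamer these shares were 19.0% (Zfp36), 4.29% (Zfp36l1), 27.2% (Zfp36l2), 3.504% (Elavl1) and 87.3% (Khsrp). All 3 family members and Elavl1 were thus rich in the heptamer, Zfp36 and Zfp36l2 had common numbers of the pentamer, and Khsrp had no heptamer in its 3′ UTR. A match of letters is not evidence of a bound site.

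Between 9917026 and 13739380 reads were counted per library. The 5 genes were all measured in every library, from 157 to 267 reads for Zfp36, 581 to 1014 for Zfp36l1, 1274 to 1793.5 for Elavl1, 2326 to 3098.67 for Khsrp and 3922.5 to 5533.5 for Zfp36l2, so Zfp36 is the least precise. All 8 fibroblast markers checked (such as Col1a1, Vim and Pdgfrb) exceeded 10 CPM (counts scaled to library size, with TMM factors) in every library. Of 8 markers of immune, epithelial and endothelial cells, 6 were listed, none with more than 10 CPM in all libraries, and 4 stayed below 1 CPM. In bulk RNA, fewer expressing cells and less RNA per cell cannot be told apart.

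Per kilobase of transcript, the order of total level was Zfp36l2, Khsrp, Elavl1, Zfp36l1 and Zfp36. The mean over the 12 libraries was 118 ± 8.77 CPM per kb (SD, n = 12) for Zfp36l2, 57.6 ± 1.83 for Khsrp, 23.0 ± 1.296 for Elavl1, 21.9 ± 1.80 for Zfp36l1 and 6.29 ± 0.718 for Zfp36. These SDs span all 6 groups, so they include change with labelling time. Elavl1 and Zfp36l1, neighbours in this order, did not differ beyond these SDs, but their order changed with labelling. Without 4sU, Zfp36l1 was at 23.1 ± 1.59 CPM per kb (SD, n = 2) and Elavl1 at 21.7 ± 0.535, with overlapping libraries. At 120 min Elavl1 was at 24.3 ± 1.22 and Zfp36l1 at 20.2 ± 0.143. Zfp36l2 was the most abundant family member in these cells, and the founding member Zfp36 the scarcest.

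The labelled share separated the 5 genes into a fast and a slow set. The 3 family messages were almost entirely replaced within the 120 min, while Elavl1 and Khsrp were about equally old and new at the end. The mean NTR at 60 min was 0.917 ± 0.0529 (SD, n = 2) for Zfp36, 0.782 ± 0.0341 for Zfp36l1, 0.681 ± 0.0157 for Zfp36l2, 0.229 ± 0.0170 for Elavl1 and 0.193 ± 0.00594 for Khsrp, beside a median of 0.155 over 9065 genes (mean count 100 or more).

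Zfp36, which encodes tristetraprolin, had the fastest labelling. Its NTR was 0.257 in A and 0.138 in B (15 min), 0.849 in A and 0.593 in B (30 min), 0.880 in A and 0.955 in B (60 min), 1.00 in A and 0.974 in B (90 min), and 1.00 in A and 0.966 in B (120 min). The 2 libraries differed widely at 15 and 30 min, where the deposited 90% intervals at 30 min were 0.716 to 0.941 in A and 0.464 to 0.727 in B. From 60 min on both were near saturation. Zfp36 stood at percentiles 99.9 and 99.8 of all genes at 15 min and 99.5 and 99.7 at 60 min, so few messages of these cells were labelled faster.

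Zfp36l1 encodes a family member also known as BRF1 or TIS11B. Its NTR was 0.107 in A and 0.0944 in B (15 min), 0.476 in A and 0.448 in B (30 min), 0.758 in A and 0.806 in B (60 min), 0.904 in A and 0.916 in B (90 min), and 0.956 in A and 1.00 in B (120 min). A and B were close at every duration. It ranked at percentiles 99.4 and 99.2 of all genes at 30 min.

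Zfp36l2, also known as BRF2 or TIS11D, rose a little more slowly. Its NTR was 0.0813 in A and 0.0469 in B (15 min), 0.331 in A and 0.311 in B (30 min), 0.670 in A and 0.692 in B (60 min), 0.898 in A and 0.845 in B (90 min), and 0.975 in A and 1.00 in B (120 min). With many more reads than Zfp36, its intervals were narrow, such as 0.312 to 0.351 in 30 min library A. It ranked at percentiles 98.3 and 98.0 of all genes at 30 min.

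Elavl1 had an NTR of 0.0171 in A and 0.0114 in B (15 min), 0.0800 in A and 0.0973 in B (30 min), 0.217 in A and 0.241 in B (60 min), 0.363 in A and 0.336 in B (90 min), and 0.452 in A and 0.447 in B (120 min). It stayed between percentiles 60.1 and 75.9 of all genes. The message with the most AU-rich heptamers of the 5 was thus above the median gene and far below the Zfp36 family.

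Khsrp had an NTR of 0.0447 in A and 0.0162 in B (15 min), 0.0892 in A and 0.0921 in B (30 min), 0.197 in A and 0.189 in B (60 min), 0.350 in A and 0.370 in B (90 min), and 0.515 in A and 0.513 in B (120 min). Only the 15 min libraries were far apart. Khsrp was the lower of the slow pair at 60 min and the higher at 120 min, in both libraries each time.

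**Figure D1:**
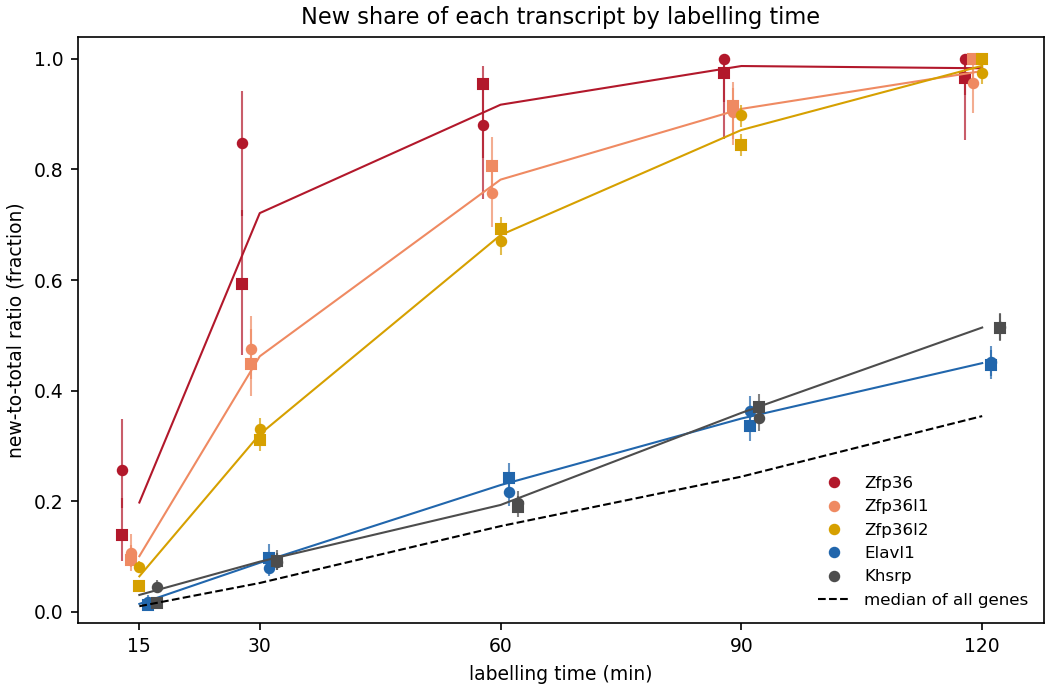
New-to-total ratio (fraction, y axis) against labelling time in minutes (x axis, points of each gene shifted slightly sideways) for the 5 genes. Circles are library A, squares library B, vertical bars the deposited 90% intervals, solid lines the means and the dashed line the median of 9065 genes. The 3 Zfp36 family genes end at 0.956 or above at 120 min, and Elavl1 and Khsrp end between 0.447 and 0.515.

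The NTR of each pair of genes was compared within libraries, over the 10 labelled libraries, with a two-sided exact sign-flip permutation test, adjusted over the 10 pairs by Benjamini-Hochberg. Of the 10 pairs, 9 differed. The SDs of the differences given here span all labelling durations. They include the change of a difference with time (0.0307 to 0.548 in single libraries for Zfp36l2 and Khsrp), not only the spread between A and B. Each family member exceeded Elavl1 and Khsrp in 10 of 10 libraries, with non-overlapping 90% intervals in all 10, by a mean of 0.347 ± 0.198 (SD of the difference) for the closest of these pairs (Zfp36l2 and Khsrp) and 0.535 ± 0.205 for the widest (Zfp36 and Elavl1). Each of these 6 pairs had an exact permutation p = 0.00195, the smallest that 10 libraries can give (adjusted p = 0.00326). Zfp36 exceeded Zfp36l1 by 0.115 ± 0.108 and in 9 of 10 libraries (exact permutation p = 0.00391, adjusted 0.00558), with intervals apart in 2 of 10. It exceeded Zfp36l2 by 0.176 ± 0.156, also in 9 of 10 (exact permutation p = 0.00586, adjusted 0.00732), with intervals apart in 7. Zfp36l1 exceeded Zfp36l2 by only 0.0613 ± 0.0587 and in 8 of 10 (exact permutation p = 0.0117, adjusted 0.0130), with intervals apart in 5. Elavl1 and Khsrp did not pass (mean difference -0.0114 ± 0.0370, from -0.0663 to 0.0522 in single libraries, exact permutation p = 0.352), and their 90% intervals were apart in 4 libraries, with Elavl1 above in 1 of them.

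The apparent half-life follows from the NTR if old RNA decays exponentially while the total stays constant (labelling time × ln 2 / -ln(1 - NTR)). It was computed where the NTR was neither below 0.01 nor above 0.99. At 30 min it was 17.1 min ± 8.55 (SD, n = 2) for Zfp36, 33.6 min ± 1.99 for Zfp36l1 and 53.8 min ± 2.92 for Zfp36l2. For Elavl1 it was 226 min ± 32.7 and for Khsrp 219 min ± 5.19, both shorter than the median gene at 368 min ± 11.7. At 60 min the values were 16.5 min ± 4.37, 27.4 min ± 2.81, 36.4 min ± 1.57, 160.3 min ± 13.5 and 194 min ± 6.65 in the same order of genes. The order within the family was kept from 30 to 60 min, but the estimates drew together as labelling went on.

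At 120 min an NTR of 1.00 left a single usable library for each family gene, at 24.6 min for Zfp36 (B), 26.6 min for Zfp36l1 (A) and 22.5 min for Zfp36l2 (A). The 3 family genes can no longer be ordered at that duration. Elavl1 was at 139 min ± 1.62 and Khsrp at 115 min ± 0.372 (SD, n = 2). At 15 min every value was longer, from 52.5 min ± 24.7 for Zfp36 through 98.5 min ± 9.05 for Zfp36l1 and 169.5 min ± 66.4 for Zfp36l2 to 432 min ± 289 for Khsrp and 755 min ± 215 for Elavl1. The median gene also shortened with labelling time, from 519 min ± 66.7 at 15 min to 247 min ± 7.16 at 60 min and 198 min ± 5.41 at 120 min. A shortening estimate is thus not particular to these genes. The slope of the unlabelled level over 30 to 120 min, which does not take the RNA level as constant, gave 25.6 min for Zfp36, 23.0 min for Zfp36l1, 19.3 min for Zfp36l2, 143 min for Elavl1 and 88.6 min for Khsrp. Libraries with an NTR of 1.00 have no unlabelled level and were left out, so that Zfp36 rests on 6 libraries, Zfp36l1 and Zfp36l2 on 7 each, and Elavl1 and Khsrp on 8 each. By that slope, too, the family genes lie far below Elavl1 and Khsrp, and Khsrp below Elavl1. Within the family the slope gave the reverse of the order at each duration before 120 min, with Zfp36l2 shortest and Zfp36 longest. No spread is given for the slope values, and this reversal was not tested. The left-out libraries, at 90 or 120 min, are those with the least unlabelled RNA, so the omission is one-sided. The late unlabelled Zfp36 levels that were kept were only 0.430 CPM (90 min B) and 0.515 CPM (120 min B).

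Splitting each total level into its unlabelled part, (1 - NTR) times CPM, and its new part, NTR times CPM, shows the replacement directly. Unlabelled Zfp36 went from 15.4 CPM ± 0.959 (SD, n = 2) at 15 min to 5.05 ± 2.96 at 30 min and 1.34 ± 0.801 at 60 min, which is 8.73% of the 15 min level. Its new part was 13.5 ± 4.36 CPM at 30 min, 15.1 ± 1.63 at 60 min and 14.9 ± 0.432 at 120 min. New Zfp36 RNA thus levelled off by 30 to 60 min.

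At 60 min Zfp36l1 had 22.3% and Zfp36l2 29.1% of its 15 min unlabelled level left, against 74.7% for Elavl1 and 84.6% for Khsrp. New Zfp36l2 RNA was still accumulating late, from 270.1 ± 13.4 CPM at 60 min to 351 ± 3.69 at 90 min and 386 ± 27.2 at 120 min. At 120 min 59.5% of the 15 min unlabelled level remained for Elavl1 and 47.6% for Khsrp.

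**Figure D2:**
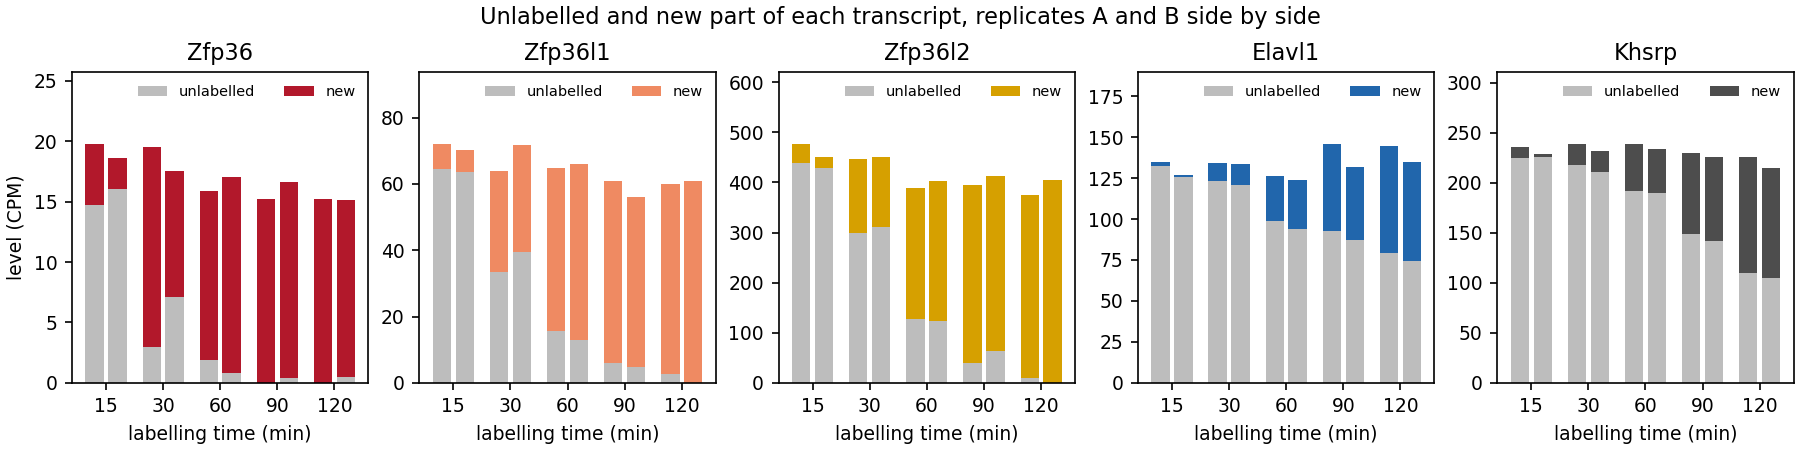
Level in CPM (y axis, starting at 0, a separate scale per gene) by labelling time in minutes (x axis), with 1 bar per library, A left and B right. The grey part is unlabelled and the coloured part new RNA. Grey nearly vanishes in the 3 family genes and is still 74.4 to 79.1 CPM for Elavl1 and 104.8 to 109 CPM for Khsrp at 120 min.

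Total levels bear on the bias the series asks about. Zfp36 was at 20.9 CPM in A and 19.1 CPM in B (no4sU), 19.8 in A and 18.6 in B (15 min), 19.6 in A and 17.6 in B (30 min), 15.9 in A and 17.0 in B (60 min), 15.2 in A and 16.6 in B (90 min), and 15.2 in A and 15.2 in B (120 min). All 6 libraries with at most 30 min of labelling lay above all 6 with 60 min or more. Zfp36l1 was at 65.9 CPM in A and 72.6 CPM in B (no4sU), 72.1 in A and 70.1 in B (15 min), 64.0 in A and 71.7 in B (30 min), 64.8 in A and 66.2 in B (60 min), 60.8 in A and 56.1 in B (90 min), and 60.1 in A and 60.8 in B (120 min). Its 90 and 120 min libraries lay below all others.

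Zfp36l2 was at 416 CPM in A and 396 CPM in B (no4sU), 477 in A and 449.8 in B (15 min), 448 in A and 451 in B (30 min), 389 in A and 404 in B (60 min), 394 in A and 412 in B (90 min), and 376 in A and 405 in B (120 min). Its 15 and 30 min libraries were above all others, those without 4sU included. Elavl1 ranged from 123 to 146 CPM and was highest in 90 and 120 min library A, and Khsrp ranged from 215 to 239 CPM, with overlapping groups in both.

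**Figure D3:**
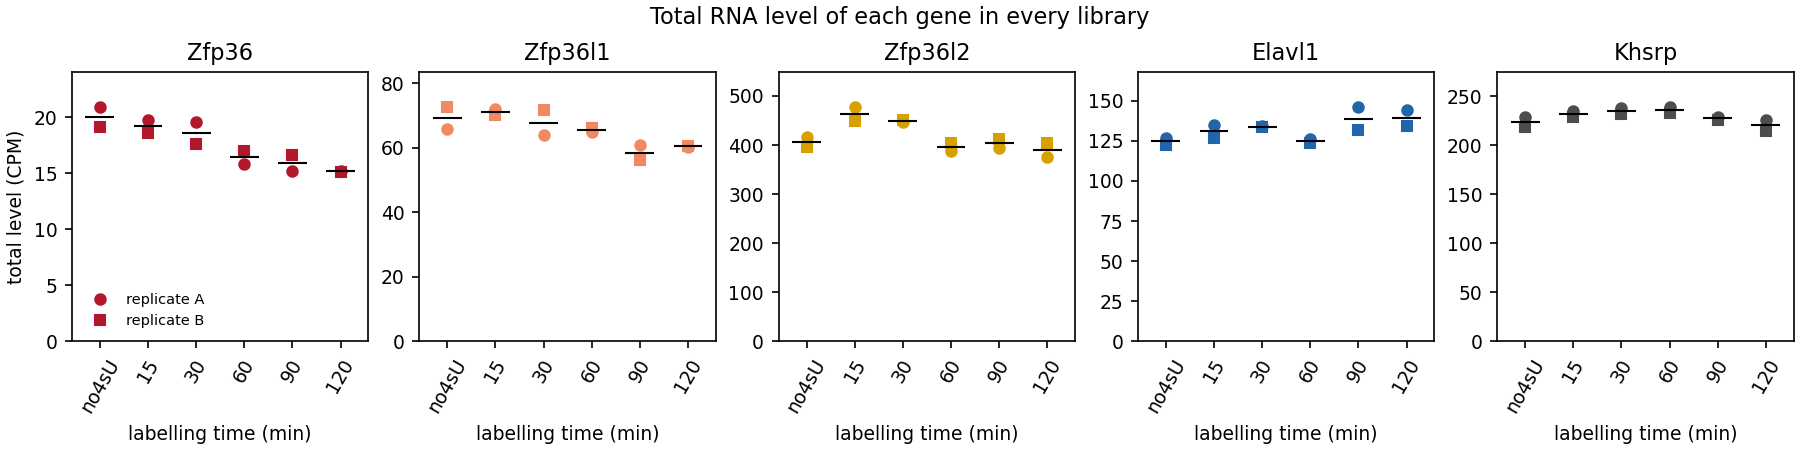
Total level in CPM (y axis, starting at 0) in every library by group (x axis, no4sU or labelling time in minutes), with circles for library A, squares for B and bars for the group mean. Zfp36 steps down between 30 and 60 min, Zfp36l1 is lowest at 90 and 120 min, and Zfp36l2 is highest at 15 and 30 min.

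Over the 10 labelled libraries, the 3 family messages fell with labelling time and neither Elavl1 nor Khsrp passed (edgeR's quasi-likelihood test, Benjamini-Hochberg adjusted over 11526 genes). The change per hour on the log2 scale was -0.20 ± 0.0526 (SE, edgeR adjusted p = 0.00222) for Zfp36, -0.15 ± 0.0321 (adjusted p = 0.000297) for Zfp36l1 and -0.14 ± 0.0228 (adjusted p = 3.41e-06) for Zfp36l2. Khsrp was at -0.05 ± 0.0206 (adjusted p = 0.0549) and Elavl1 at 0.05 ± 0.0271 (adjusted p = 0.129). Of all genes, 37.8% passed and 19.5% were lower, so 3 lower of 5 stands beside a common kind of change. Leaving out any single labelled library kept the 3 family calls (largest edgeR adjusted p = 0.0128, for Zfp36), while Khsrp passed without 15 min library B (adjusted p = 0.0291), without both 15 min libraries (0.0336) and with library size alone (0.00140).

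For 120 against 15 min the same 3 genes were lower, at -0.34 ± 0.109 (SE, edgeR adjusted p = 0.0347) for Zfp36, -0.23 ± 0.0741 (adjusted p = 0.0320) for Zfp36l1 and -0.25 ± 0.0539 (adjusted p = 0.00372) for Zfp36l2, where 19.3% of 11564 genes passed, 11.3% lower and 7.93% higher. Elavl1 was at 0.09 ± 0.0632 (adjusted p = 0.330) and Khsrp at -0.08 ± 0.0528 (adjusted p = 0.327). Zfp36 and Zfp36l1 lost their calls without any 1 of the 4 libraries (edgeR adjusted p from 0.0825 to 0.205 and from 0.0970 to 0.182), and Zfp36l2 without 15 min library A (adjusted p = 0.0831) or 120 min library A (adjusted p = 0.0822). By DESeq2, Zfp36l2 alone passed (adjusted p = 0.130 for Zfp36 and 0.0718 for Zfp36l1).

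For 120 min against no4sU only Zfp36 passed, at -0.39 ± 0.107 (SE, edgeR adjusted p = 0.0198), where 14.2% of genes passed, 8.78% lower and 5.43% higher. Zfp36l1 was at -0.20 ± 0.0736 (adjusted p = 0.0734), Zfp36l2 at -0.06 ± 0.0540 (adjusted p = 0.515), Elavl1 at 0.16 ± 0.0631 (adjusted p = 0.0884) and Khsrp at -0.02 ± 0.0527 (adjusted p = 0.820). Zfp36 lost its call without 120 min library A or B (edgeR adjusted p = 0.103 and 0.119), in a fit of these 2 groups alone (0.130) and by DESeq2 (0.0839). Without no4sU library A, Zfp36l1 (-0.26, edgeR adjusted p = 0.00504) and Elavl1 (0.18, adjusted p = 0.0195) also passed, as did Zfp36l1 with library size alone (-0.27, adjusted p = 0.0169).

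When the labelled part of every count was scaled up by the share whose loss would remove the relation between fold change and NTR across genes (30.4% and 32.1% in 120 min libraries A and B), no family gene was lower by any of the 3 tests. The slope became -0.01 for Zfp36 (edgeR adjusted p = 0.944), 0.04 for Zfp36l1 (adjusted p = 0.425) and 0.05 for Zfp36l2 (adjusted p = 0.205), and Elavl1 passed as higher (0.08, adjusted p = 0.0484). For 120 min against no4sU, Zfp36l2 then passed as higher (0.25, adjusted p = 0.0274). The scaling acts by construction on genes of high NTR, and its share was set on these libraries, so it is not independent of the falls. Whether reads were lost was not tested.

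**Figure D4:**
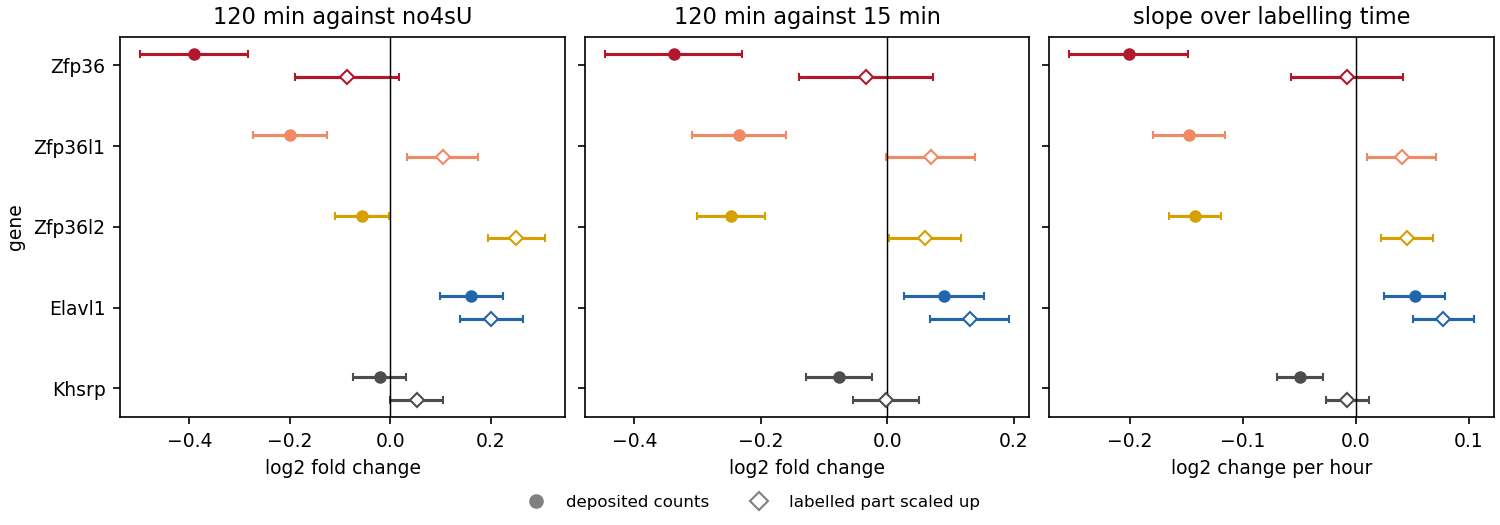
Log2 fold change at 120 min against no4sU and against 15 min, and log2 change per hour of labelling (x axes), with 1 row per gene and SE bars. Filled circles use the deposited counts and open diamonds the counts with the labelled part scaled up. The circles of the 3 family genes are below 0 in each comparison, and their diamonds lie between -0.09 and 0.25.

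Across the 8918 genes, the NTR at 60 min was higher where the 3′ UTR held more heptamers. The median was 0.138 (quartiles 0.0834 and 0.229) for the 6045 genes with 0 TATTTAT, 0.180 for 1869 genes with 1, 0.210 for 638 genes with 2 and 0.243 (quartiles 0.159 and 0.383) for 366 genes with 3 or more. The median 3′ UTR length rose beside it, from 893 to 3406 bases, and its part in the relation was not tested. The 3 family genes, at 0.681 to 0.917, were above the upper quartile of the last class, and Elavl1, at 0.229, was below its median.

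**Figure D5:**
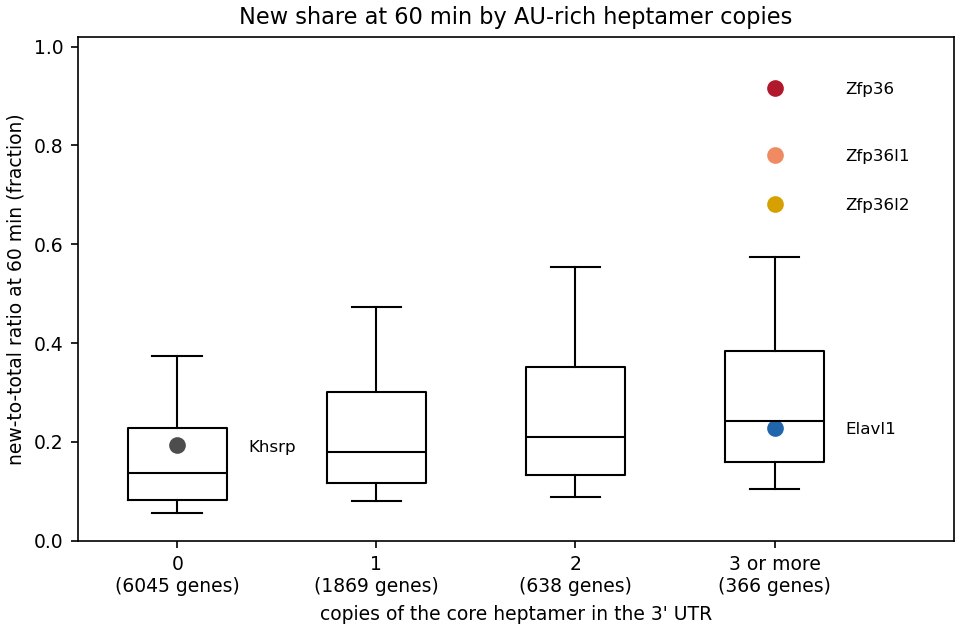
NTR at 60 min (fraction, mean of A and B, y axis) by the number of TATTTAT copies in the 3′ UTR (x axis). Boxes span the quartiles of the genes in each class with the median as a line, whiskers the 10th to 90th percentile of the same class, and coloured points are the 5 genes. The 3 family genes lie above the whisker of their class, while Elavl1 lies within the box of the same class and Khsrp within that of genes with 0 copies.

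Over the 10 labelled libraries, the genes with the smallest root mean square difference in NTR from Zfp36 were Lif (0.0588), Mir17hg (0.0596) and Klf2 (0.0613). For Zfp36l1 they were Ptgs2 (0.0376), Pim1 (0.0397) and Zfp157 (0.0404), and for Zfp36l2 Klf3 (0.0203), Zfp955b (0.0264) and Topors (0.0267). For Elavl1 they were Srsf5 (0.0134), Purb (0.0153) and Fam104a (0.0156), and for Khsrp Gprc5b (0.0107), Cnep1r1 (0.0181) and Ddx21 (0.0186). Likeness here is in the time course of labelling only. Lif, Ptgs2 and Pim1 are also in the list of AU-rich messages below.

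Among 26 messages known to carry AU-rich elements, 23 were listed and 19 had a mean count of at least 100. Of these, 18 had an NTR at 60 min above the gene median of 0.155, and the list's median was 0.607. The list was chosen with earlier results of these data known, so these values are not independent support. Dusp1, a MAP kinase phosphatase, reached 1.00 at 60 min, Ier3 0.9903 and Myc 0.971, above Zfp36 itself, while Ccnd1, encoding cyclin D1, stayed at 0.107. Between 15 and 120 min 7 of 20 tested messages fell and 2 rose, beside 11.3% lower and 7.93% higher of all genes, and the median log2 fold change was -0.11 (0.01 over all genes). Changes past the threshold included those of Mcl1, an anti-apoptotic Bcl2 relative (-0.80 ± 0.0682, SE, edgeR adjusted p = 5.90e-07), Ier3 (0.39 ± 0.116, adjusted p = 0.0224) and Plau (-0.38 ± 0.0665, adjusted p = 0.000850). With the labelled part scaled up, 1 fell and 3 rose, beside 173 lower and 81 higher of 11594 genes. The list's median then turned to 0.09 (0.01 over all genes).

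Of 26 messages for deadenylation, decapping and 5′ to 3′ decay, 12 were lower and 0 higher at 120 than at 15 min by edgeR, beside 11.3% lower and 7.93% higher of all genes. By DESeq2 9 were lower and 0 higher, beside 886 lower and 567 higher of 11564 genes. The median log2 fold change of the 26 messages was -0.20. The largest was Dcp1b (-1.24 ± 0.381, SE, edgeR adjusted p = 0.0281), at only 0.675 to 2.29 CPM. The deadenylase Cnot6l went from 46.6 and 47.5 CPM to 25.7 and 28.4 (-0.79 ± 0.0992, adjusted p = 4.56e-05). The decapping factors Dcp1a (-0.48 ± 0.0771, adjusted p = 0.000421) and Dcp2 (-0.43 ± 0.0933, adjusted p = 0.00338) also fell. The 25 messages with enough reads had a median NTR of 0.199 at 60 min, with 20 of them above the gene median. With the labelled part scaled up, 2 were lower and 1 higher, beside 173 lower and 81 higher of 11594 genes.

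Of 17 tested messages of other RNA-binding proteins that act on mRNA stability, 3 fell and 1 rose at 120 against 15 min (median -0.06), near the shares of all genes (11.3% lower and 7.93% higher). With the labelled part scaled up, 1 fell and 1 rose, beside 173 lower and 81 higher of 11594 genes. In the deposited counts, those that fell included the translational repressor Pum2 (-0.40 ± 0.0702, SE, edgeR adjusted p = 0.000888) and Igf2bp3 (-0.20 ± 0.0646, adjusted p = 0.0389), and Ybx1 rose (0.21 ± 0.0452, adjusted p = 0.00369). Of 15 messages for the p38-MK2 kinases, the phosphatase PP2A and the 14-3-3 proteins, which control Zfp36 proteins through phosphorylation, Mapk14, encoding p38α, fell (-0.19 ± 0.0561, adjusted p = 0.0200). Ywhae (0.19 ± 0.0460, adjusted p = 0.00775) and Ywhaq (0.17 ± 0.0507, adjusted p = 0.0257), both 14-3-3 genes, rose. These 1 lower and 2 higher of 15 stand beside 11.3% and 7.93% of all genes. With the labelled part scaled up 0 were lower and 0 higher by edgeR, beside 173 lower and 81 higher of 11594 genes. With library size alone 1 was lower and 1 higher, beside 1867 lower and 426 higher of 11564 genes. The median of the 15 messages was 0.00 with TMM and -0.05 with library size alone.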

How the data were processed

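Tools named in the submitters' processing notes are cutadapt, Bowtie2 2.3.0 and STAR 2.7.10b; for the counting tool, build, annotation and strand use, the labels and headers name nothing (not given in the sources used here). Per gene and library, the authors deposited estimated counts, 20.4% of them not whole (tolerance 1e-06), which were rounded here. They also deposited the NTR as a fraction, with a posterior maximum (used here), a mean and 0.05 and 0.95 quantiles (the 90% interval, which can end below a maximum of 1). The deposited alpha and beta parameters, each a score, were not used. Columns of other samples and entries without a gene numbered 0.

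The test on counts was that of edgeR 4.0.16 (R 4.3.3) (filterByExpr, TMM, quasi-likelihood, no covariate, threshold 0.05): both 120 min contrasts in 1 fit of 12 libraries, and the slope per hour in the 10 labelled libraries. SE is the absolute log2 fold change divided by the root of F. DESeq2 1.42.0 was the other tool. The tests were checked on simulated data. The replicate letters were not used as pairs, since A minus B differences correlated between groups from -0.0421 to 0.0684. Other alternatives were scaling, filtering, left-out libraries and the posterior mean. Python 3.11.15 was used.

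3′ UTRs were taken from the GENCODE M21 protein-coding transcript of the deposited gene length where there was one (7022 of 8918 genes, and all 5 described), otherwise the longest. Each of the 5 genes overlaps a gene on the other strand there; Gm44710 (mean count 2.21), AC132455.1 (0.208) and Ccl25 (90.0) were in the table. Fractional counts occurred in 1 to 7 of 12 libraries per gene, so reads shared with other genes may be divided. The members and lists were chosen with earlier results of these data known. Named genes were the 5 members, the 3 nearest in NTR to each, up to 4 of each list with the largest change past the threshold, and any group of 5 or fewer. Some genes that this rule names are not reported here. Dusp1, Myc and Ccnd1 were named after their values were seen.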

Additional observations from a re-analysis of the deposited data

How the results depend on the processing

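Calls at 120 min changed with single libraries and with the scaling. The 3 slope calls of the Zfp36 family were lost only with the labelled part scaled up, among the alternatives run, and Khsrp passed too under 4 of them. Of the 5 genes, 1 was called at 120 min against no4sU, but 0 by DESeq2 or with only these groups in the fit, 2 with library size alone and from 0 to 3 with a library left out. At 120 against 15 min 3 were called, but 1 by DESeq2, 0 with the labelled part scaled up and 0 to 1 with a library left out. For the slope 3 were called, and 1 (Elavl1, higher) with the labelled part scaled up. With that scaling the log2 fold change turned to 0.10 (Zfp36l1), 0.25 (Zfp36l2) and 0.0522 (Khsrp) against no4sU, 0.0689 (Zfp36l1) and 0.0598 (Zfp36l2) against 15 min, and a slope of 0.0407 (Zfp36l1) and 0.0455 (Zfp36l2). Against no4sU, leaving out a library moved Zfp36l2 between -0.11 and 0.0032 and Khsrp between -0.0580 and 0.0113. Elsewhere each of the 5 genes kept its direction.

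Over all genes, 1643 were called at 120 min against no4sU, 1059 by DESeq2, 189 with the labelled part scaled up, 171 with only these groups and 452 to 3533 (without no4sU replicate A) with a library left out. At 120 against 15 min 2228 were called, 1453 by DESeq2, 254 scaled up, 3818 with only these groups and 657 to 1037 with a library left out. For the slope 4362 were called, 1561 scaled up and 1654 without the 120 min libraries, an alternative chosen after seeing the data. Library size alone moved the share of higher calls from 38.2% to 10.8%, from 41.2% to 18.6% and from 48.4% to 27.9% in the 3 comparisons.

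With the replicate block, Khsrp passed for the slope (-0.05, edgeR adjusted p = 0.0487), which made 4 called genes, and no other call of the 5 genes changed. The NTR order held with any library left out (9 pairs). With 60, 90 and 120 min alone 0 pairs passed the exact permutation test. The 6 pairs of a family gene with Elavl1 or Khsrp had an adjusted p of 0.0521, and the within-family pairs 0.0893 to 0.208. Each of those 6 pairs was at the smallest p that so few libraries can give. The test therefore cannot show that their difference was lost. Their mean differences were 0.491 to 0.620 in these libraries, against 0.347 to 0.535 over all labelled libraries. Half-lives moved beyond their spread to 30.4 min (Zfp36l2), 145 min (Elavl1) and 140.0 min (Khsrp) at 90 min, and by the slope of the unlabelled level to 143 min (Elavl1) and 88.6 min (Khsrp). That spread was the SD of 2 libraries for Elavl1 and Khsrp (1.62 and 0.372 min). For each family gene it came from the 90% interval of the single usable library (12.6 min for Zfp36, 7.91 for Zfp36l1, 4.23 for Zfp36l2). By this wider measure Zfp36, at 17.1 min in the 90 min libraries, counted as unmoved. The moves therefore do not rank the genes by stability. For Zfp36, 157 to 267 reads per library limit every value.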
